A study of Bos taurus with 17 samples.

Results

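The 10 genes described here are the D cyclins CCND1, CCND2 and CCND3, their kinase partners CDK4 and CDK6, the Cip/Kip inhibitors CDKN1A, CDKN1B and CDKN1C, and the stress-response genes GADD45A and GADD45B, measured in cow cumulus cells. Probes were taken by the gene symbol of the array, or by its description where the array names the gene by a locus number. This rule found 8 of the 21475 non-control probes, 1 for each of 8 genes, and 7 of them passed the filter on dim spots. CDKN1B did not pass it. CDKN1C and CDK6 were present only as EST probes (probes made from a single sequenced cDNA) whose description names the gene. They lie outside the rule and are given separately, and their identity rests on the description alone.

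Cumulus cells are the somatic cells that enclose the oocyte. NC1 cells came from 6 individual prepubertal calves aged 3 to 6 months, from follicles of 3 to 6 mm with oocytes that are not yet competent for development. C1 cells came from 6 adult cows, around competent oocytes still in prophase I, and like NC1 cells were aspirated after slaughter from complexes with a compact cumulus. C2 cells came from 5 cycling, non-lactating Holstein cows 3 to 5 years old, around metaphase II oocytes. These cows had received progestagen implants and an FSH/LH preparation, and 60 h after a prostaglandin injection their follicles above 8 mm were emptied by ovum pick up, keeping complexes with an expanded cumulus. Between NC1 and C1 the age of the animals changed with the stage, and between C1 and C2 the hormone treatment, the follicle size and the way of collection did, so that none of these can be told apart from the stage.

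A cell that prepares to divide makes D cyclins, which bind CDK4 or CDK6 and start the phosphorylation of the retinoblastoma family that holds back entry into S phase. CDKN1A (p21), CDKN1B (p27) and CDKN1C (p57) bind cyclin-kinase complexes and stop the cycle, and the GADD45 proteins are induced by stress and DNA damage and can slow it. In the ovary CCND2 is the D cyclin through which FSH drives granulosa cell proliferation, and granulosa and cumulus cells leave the cycle after the ovulatory LH surge.

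Each array was 1 sample. Levels are log2 of the background-corrected signal minus the array's median, so that 0 is the median probe of the array and 1 unit is a doubling, and no level of a probe was set against that of another. Between 66.0% and 82.7% of probes were well above background on an array. NC1 replicate 5 had the lowest median signal, 64.2 against 103 to 208 on the other arrays. It also had the highest centred NC1 levels of CCND2 (7.07) and GADD45B (6.76). The 8 granulosa and cumulus markers on the array were well above background on every NC1 and C1 array and 7 of them on every C2 array. Their summed level was 4498 to 9741 times the array median at NC1, 4369 to 6639 at C1 and 1445 to 5835 at C2. The summed level of 6 markers of the expanded cumulus was at most 57.9 at NC1 and C1 and 547 to 1502 at C2. Markers of other cells were read in the same way, and their part in the results was not tested. Summed leukocyte markers (8 genes) were 24.7 to 48.0 at NC1, 21.3 to 37.3 at C1 and 17.1 to 68.8 at C2. From C1 to C2 the brightest, ITGB2, changed by -0.32 and CXCR4 by 0.64. CD53 changed by 3.35, LAPTM5 by 2.74, CSF1R by 1.86, CD68 by 1.57, CD14 by 1.22 and TYROBP by 0.92. In limma 4 of the 8 rose against C1 and 1 against NC1, where 15.3% and 15.5% of all probes did. Theca and stroma markers (7 genes) reached 282 at NC1 and C1 and lay between 275 and 597 at C2. Of those tested, LUM changed by 3.79 from C1 to C2, COL3A1 by 3.52, COL1A1 by 1.15, DCN by -0.07 and INSL3 by -0.78. Endothelial markers (7 genes) lay between 1.52 and 3.06 at NC1 and C1 and between 2.88 and 11.5 at C2. They did not move together, since from C1 to C2 KDR changed by 3.58, VWF by 0.49, CLDN5 by -0.06, PECAM1 by -0.70 and TEK by -0.78. CDH5 and EMCN were well above background on no array. Markers of red blood cells were at most 0.326 on every array. Oocyte markers (5 genes) lay between 43.6 and 99.8 at NC1, 4.48 and 40.2 at C1 and 3.04 and 5.99 at C2, where BMP15 and ZP2 were well above background on 0 of 5 arrays. In whole-sample RNA, fewer cells of a type and less RNA per cell cannot be told apart.

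The probes that the results turn on are 60 bases long. A stretch of 30 bases is shown for each of 4 of them, to show which transcript sequence each value reads, from base 23 of the probe for CDKN1A and from base 1 for the others. Capitals mark AATAAA, the hexamer that precedes the poly(A) tail in most transcripts, which was searched on the probe strand. It was found in 14.3% of the 15256 probe sequences of the deposited table, and its reverse complement in 4.35%.
CCND1: atgattgcaatcgctcccggaccatgtctc
CCND2: aaattctgcccccacctagatcctattgaa
CDKN1A: tgagtatacagcaggtgctcAATAAAtatt
CDKN1C: aagagtcatttatataaaatgtttaatctc
The probes of CCND2 and CDKN1A hold stop codons in all 3 reading frames of the probe strand, so that neither can be wholly coding. Among the 8 probes of these genes with a sequence in the table, CDKN1A was the 1 that held the hexamer.

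Mean CCND2 was lower at C2 than at NC1 and mean CCND1 was higher than at C1, but each D cyclin varied widely between the C2 animals. CCND2 lay 5.65-fold lower at C2 than at NC1 and CCND1 lay 5.41-fold higher at C2 than at C1, and these were the changes of the 7 members that passed the threshold of an adjusted p under 0.01. Each slide held arrays of several stages, and with the slide as a block neither passed (adjusted p = 0.0161 by limma for both). In limma's F test over the 3 stages neither gene passed (adjusted p = 0.0145 for CCND1 and 0.0125 for CCND2). CCND3 was 2.57-fold higher at C2 than at C1, which did not pass the threshold. The SD between the 5 C2 arrays was 1.92 for CCND1, 2.40 for CCND2 and 1.54 for CCND3, where the median probe had an SD of 0.498.

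CCND2, the FSH-responsive D cyclin of granulosa cells, lay between 6.07 and 7.07 (median 6.30) on the 6 NC1 arrays and between 5.90 and 6.68 (median 6.34) on the 6 C1 arrays. On the C2 arrays it was 1.66 for replicate 1, 4.17 for replicate 2, 6.12 for replicate 3, 6.47 for replicate 4 and 1.37 for replicate 5. Replicates 1, 2 and 5 thus lay below every array of the other stages, while replicates 3 and 4 lay among them. The mean fell by 2.50 on the log2 scale from NC1 to C2 (6.46 ± 0.40, SD, n = 6, against 3.96 ± 2.40, SD, n = 5, SE of the change 0.71, adjusted p = 0.00871 by limma). Against C1 (6.34 ± 0.27, SD, n = 6) the change was -2.38 (SE 0.71), and its adjusted p of 0.0117 did not pass, although it did with the 75th percentile (0.00833), quantile normalization (0.00661) and normexp (0.0094). Exact permutation tests of these 2 differences gave p = 0.0238 and p = 0.0281 (two-sided), where 0.00216 is the smallest p that 5 arrays against 6 allow. Between C1 and NC1 the change was -0.11 with a 95% interval of -1.53 to 1.30. The SEs and intervals given here and below use 1 spread per probe, shared by the 3 stages. This interval thus carries the SD of 2.40 at C2, beside 0.40 and 0.27 in the 2 stages compared. In the same way the SEs of changes to C2 carry the smaller spread of the other stages.

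CCND1, a D cyclin induced by mitogens in many cells, lay between -1.77 and 0.67 (median -1.12) at NC1 and between -2.50 and -1.26 (median -1.80) at C1. The C2 values were 0.44 for replicate 1, -2.25 for replicate 2, 3.02 for replicate 3, 1.47 for replicate 4 and 0.49 for replicate 5. All C2 arrays but replicate 2 lay above the 6 C1 arrays, and replicates 3 and 4, in which CCND2 stayed among the other stages, had the 2 highest CCND1 values. The mean rose by 2.44 from C1 (-1.80 ± 0.43, SD, n = 6) to C2 (0.63 ± 1.92, SD, n = 5, SE of the change 0.64). The adjusted p was 0.00521 by limma, and an exact permutation test gave p = 0.0152. Against NC1 (-0.94 ± 0.89, SD, n = 6) the change was 1.57 (SE 0.64, adjusted p = 0.0571 by limma), with a 95% interval of 0.23 to 2.92. The C1 to NC1 change was -0.86, with an interval of -2.14 to 0.42.

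CCND3, the D cyclin that is often kept in cells as they differentiate, lay between 3.91 and 4.60 (median 4.18) at NC1 and between 4.02 and 4.90 (median 4.26) at C1. At C2 it was 7.32 for replicate 1, 3.85 for replicate 2, 4.82 for replicate 3, 5.15 for replicate 4 and 7.24 for replicate 5. Replicates 1 and 5, the arrays with the lowest CCND2, were those with the highest CCND3, and replicate 2 lay below every array of the other stages. The change from C1 was 1.36 (SE 0.47, adjusted p = 0.0273 by limma), with a 95% interval of 0.37 to 2.36, and that from NC1 was 1.43 (SE 0.47, adjusted p = 0.0213 by limma).

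**Figure D1:**
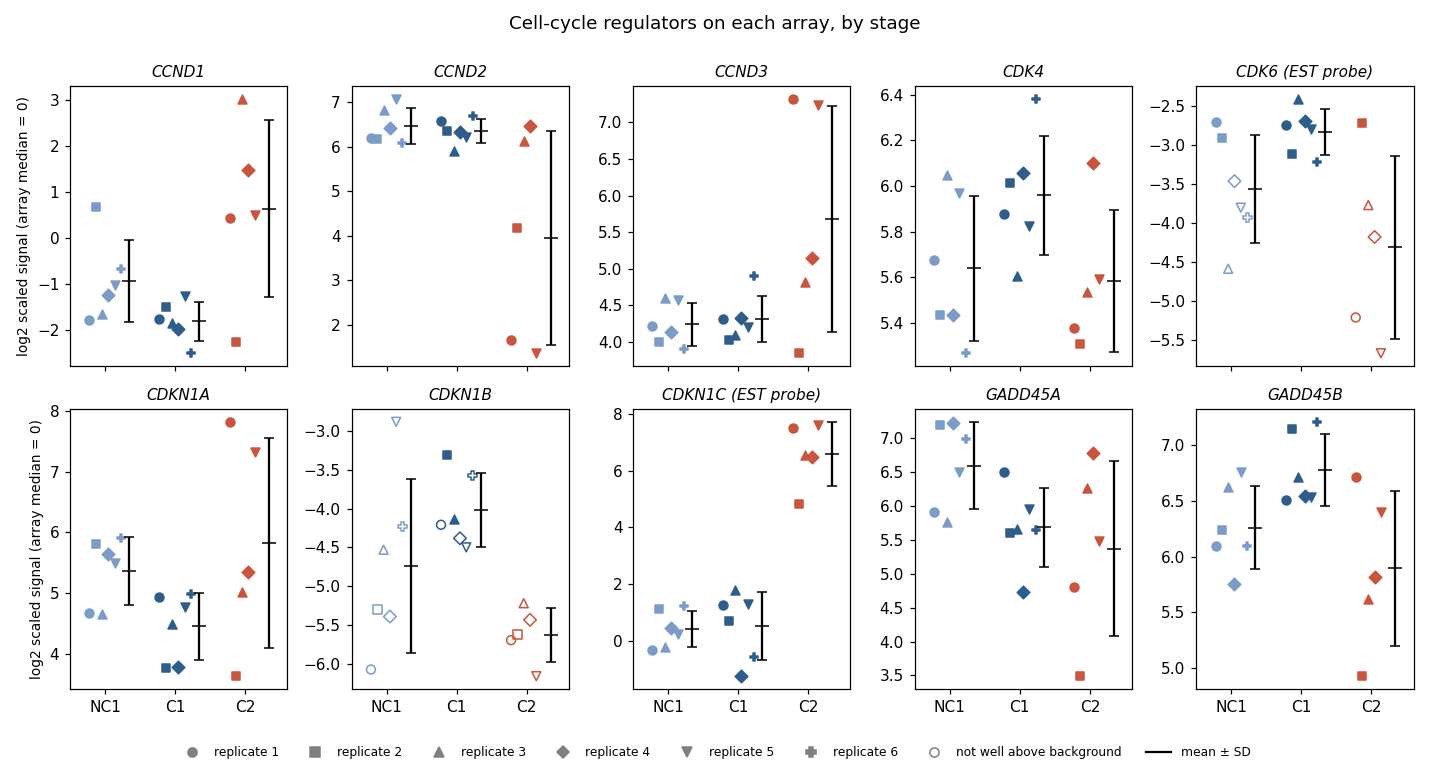
Level of each of the 10 genes on each of the 17 arrays, as log2 scaled signal with the array median at 0 (vertical axis, own range per gene), by stage. Marker shapes give the replicate number within a stage, open markers are arrays on which the probe was not well above background, and bars are mean ± SD. The C2 arrays of CCND2 run from 1.37 to 6.47 and those of CDKN1C from 4.83 to 7.62, above the highest C1 array at 1.80.

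CDK4 did not pass the threshold with arrays centred on their medians, but it fell from C1 to C2 with other scalings. CDK4, the kinase that D cyclins activate, had close levels at all stages, with 5.27 to 6.05 (median 5.56) at NC1, 5.60 to 6.38 (median 5.95) at C1 and 5.31 to 6.10 (median 5.54) at C2. Its SD at C2 was 0.31, less than that of 79.5% of the 13865 probes tested. Its change was -0.38 from C1 to C2, with a 95% interval of -0.79 to 0.04, and -0.06 from NC1 to C2, with an interval of -0.47 to 0.36. The change from C1 passed with scaling by the 75th percentile (-0.50, adjusted p = 0.0029 by limma) and with quantile normalization (-0.57, adjusted p = 0.00045). The EST probe described as CDK6, the other D cyclin kinase, could be told from background on 6 of 6 arrays at C1, but on 2 of 6 at NC1 and at C2 on replicate 2 alone. Its readings lay between -4.59 and -2.71 at NC1, between -3.21 and -2.41 at C1 and between -5.67 and -2.72 at C2. Since most of those at NC1 and C2 were not above background, no change is given.

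Among the inhibitors, the largest difference between stages was that of the EST probe described as CDKN1C (p57), which was 67.2-fold higher at C2 than at C1 and 72.9-fold higher than at NC1. It lay between -0.32 and 1.21 (median 0.34) at NC1 and between -1.25 and 1.80 (median 0.96) at C1. At C2 it was 7.52 for replicate 1, 4.83 for replicate 2, 6.55 for replicate 3, 6.47 for replicate 4 and 7.62 for replicate 5. All 5 C2 arrays lay above all 12 arrays of the other stages, by 3.02 on the log2 scale for the nearest pair. The mean rose by 6.07 from C1 (0.53 ± 1.20, SD, n = 6) to C2 (6.60 ± 1.13, SD, n = 5, SE of the change 0.55, adjusted p = 1.03e-07 by limma). From NC1 (0.41 ± 0.65, SD, n = 6) it rose by 6.19 (SE 0.55, adjusted p = 9.20e-08 by limma). Exact permutation tests gave p = 0.00216 for both, the smallest they can give. Of the 13865 probes tested, 22 rose more from C1 and 11 rose more from NC1. Replicates 1 and 5 had the highest values and replicate 2 the lowest, and the latter still lay 4.30 above the C1 mean. C1 and NC1 differed by 0.12, with a 95% interval of -0.98 to 1.22.

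CDKN1A (p21), a stress-induced inhibitor of cyclin-dependent kinases, lay between 4.65 and 5.90 (median 5.56) at NC1 and between 3.76 and 4.98 (median 4.63) at C1. At C2 it was 7.82 for replicate 1, 3.63 for replicate 2, 5.02 for replicate 3, 5.34 for replicate 4 and 7.32 for replicate 5. All C2 arrays but replicate 2 lay above the 6 C1 arrays, and replicates 1 and 5 alone lay above the 6 NC1 arrays. The change from C1 was 1.37 (SE 0.56, adjusted p = 0.0581 by limma), with a 95% interval of 0.19 to 2.56, and that from NC1 was 0.47 (SE 0.56, adjusted p = 0.543 by limma), with an interval of -0.71 to 1.65. From NC1 to C1 the change was -0.91, which did not pass either (adjusted p = 0.627 by limma).

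CDKN1B (p27), an inhibitor that builds up in resting cells, was not well above background on any NC1 or C2 array and was well above it on 2 of 6 C1 arrays. Its readings were -6.07 to -2.88 at NC1, -4.50 to -3.31 at C1 and -6.16 to -5.22 at C2. The lowest signal that counts as above background on the C2 arrays (mean -3.52) lay above the C1 mean of -4.02, so that neither a fold nor a difference between the stages can be given.

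GADD45A and GADD45B did not pass the threshold in any comparison with arrays centred on their medians, but with other scalings GADD45B did. GADD45A lay between 5.76 and 7.22 (median 6.74) at NC1 and between 4.73 and 6.50 (median 5.65) at C1. On the C2 arrays it was 4.81 for replicate 1, 3.49 for replicate 2, 6.26 for replicate 3, 6.79 for replicate 4 and 5.49 for replicate 5. The stages overlapped, and replicates 1, 2 and 5 lay below every NC1 array. Its change was -1.23 from NC1 to C2 (SE 0.47, adjusted p = 0.0454 by limma), -0.91 from NC1 to C1 (adjusted p = 0.534 by limma) and -0.32 from C1 to C2, with a 95% interval of -1.31 to 0.68 for the last.

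GADD45B lay between 5.75 and 6.76 (median 6.17) at NC1 and between 6.51 and 7.21 (median 6.63) at C1. At C2 it was 6.71 for replicate 1, 4.92 for replicate 2, 5.62 for replicate 3, 5.81 for replicate 4 and 6.40 for replicate 5. All C2 arrays but replicate 1 lay below the 6 C1 arrays, and the C2 array was the lower on each of the 5 slides that held both stages, with differences of -1.61 to -0.11. In the means the change was -0.89 from C1 (SE 0.28, adjusted p = 0.0161 by limma) and -0.37 from NC1 (SE 0.28, adjusted p = 0.313 by limma). The change from C1 passed with scaling by the 75th percentile (-1.01, adjusted p = 0.00176 by limma) and with quantile normalization (-1.07, adjusted p = 0.000917).

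**Figure D2:**
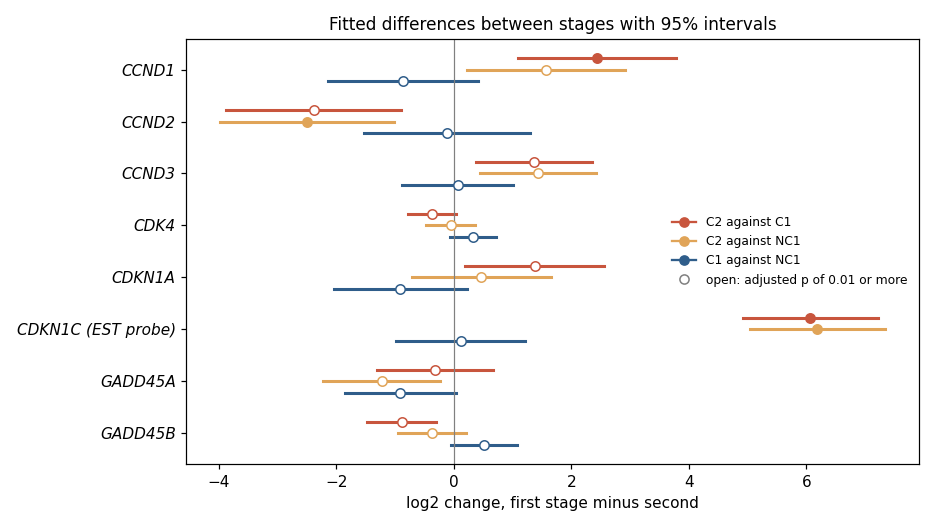
Fitted log2 change between stages (horizontal axis, first stage minus second) for the 7 members tested and the EST probe described as CDKN1C, with 95% intervals. Filled points have an adjusted p under 0.01, which are CCND1 at C2 against C1, CCND2 at C2 against NC1, and CDKN1C at C2 against both.

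Counted over the 7 members tested, 1 passed at C2 against C1 (14.3% of them, where 28.1% of all probes tested passed, 15.3% higher and 12.8% lower) and 1 passed at C2 against NC1 (28.1% of all probes, 15.5% higher and 12.6% lower). These 2 comparisons share the C2 arrays. The split of the calls depended on the scaling. Here 2117 probes were higher and 1775 lower relative to C1, and 2152 and 1741 relative to NC1. Lower calls were the more numerous after scaling by the 75th percentile, with 2114 higher and 2514 lower (C1) and 2083 and 2491 (NC1). The same held after quantile normalization, with 2212 and 2464 (C1) and 2151 and 2454 (NC1). With normexp background correction the counts were 1633 and 1643 (C1) and 2468 and 1200 (NC1). At C1 against NC1, 0 of 7 passed in limma, where 0.0577% of all probes did. With limma's spread shared by the 3 stages, 0 of 7 had an unadjusted p under 0.05. Unadjusted exact permutation tests of C1 against NC1 gave p = 0.0368 for CCND1, 0.0260 for CDKN1A, 0.0260 for GADD45A and 0.0325 for GADD45B. The same exact permutation test gave p = 0.580 for CCND2, 0.706 for CCND3 and 0.0887 for CDK4. In limma's F test over the 3 stages 0 of 7 passed, where 28.6% of all probes did. In that test 5 of 7 had an unadjusted p under 0.05, and in the methods' own one-factor test 0 of 7 passed and 4 of 7 did so unadjusted. For 0 of 7 members did the C2 arrays stand clear of all C1 arrays, as they did for 21.6% of all probes, or of all NC1 arrays, as for 20.9% of all probes. A share of members at or below that of all probes is no result about the members as a set.

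The calls of CCND1 and CCND2 could be lost by leaving out a single array. Leaving out each of the 17 arrays in turn, CCND1 at C2 against C1 passed 12 times, with a change of 1.84 to 3.16 and an adjusted p of up to 0.0153, and was lost without C1 replicate 3, 4 or 6 or C2 replicate 3 or 4. CCND2 at C2 against NC1 passed when C2 replicate 3 or 4 was left out, with a change of -1.85 to -3.13 over all 17 and an adjusted p of up to 0.0261, and was lost without any of the other 15. Without C2 replicate 2, limma also called CCND1 against NC1 (2.30, adjusted p = 0.00103), CCND3 against C1 (1.82, adjusted p = 0.00151) and NC1 (1.89, adjusted p = 0.00116), and CDKN1A against C1 (1.92, adjusted p = 0.00356). Without C2 replicate 1 it called GADD45B against C1 (-1.09, adjusted p = 0.00352), and without C2 replicate 3 or 4 it called CCND2 against C1 (-2.92 and -3.01). CDKN1C passed in all 17, with a change of 5.71 to 6.51 from C1.

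The arrays were scanned on 2 days, with C2 replicates 1, 2 and 5 on the first and 3 and 4 on the second. Within the first day the change of CCND2 from C1 to C2 was -4.09 (3 arrays each), and within the second the change was 0.10 (2 arrays against 3). NC1 and C1 arrays of both days had CCND2 means between 6.20 and 6.49. CCND1 changed by 1.40 on the first day and 4.01 on the second, GADD45A by -1.44 and 1.19, CCND3 by 1.66 and 0.83, CDKN1A by 1.36 and 1.17, GADD45B by -0.74 and -1.09 and CDK4 by -0.60 and -0.07. CDKN1C changed by 6.01 and 6.10. With 5 C2 animals over 2 days, the day and the animal cannot be told apart. On the 5 slides that held a C2 and a C1 array, CDKN1C was higher at C2 on 5 of 5 (by 3.54 to 8.11), CCND1, CCND3 and CDKN1A on 4 of 5, GADD45A on 2 of 5, and CCND2 and CDK4 on 1 of 5.

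Genes of cell division followed the same single C2 arrays. Of 34 genes of replication and mitosis, 26 were on the array and 22 were tested. At C2 against C1, 9 of the 22 fell and 0 rose in limma, and against NC1 8 fell and 0 rose, where 12.8% and 12.6% of all probes fell. The number that passed depended on the fit, with 17 and 16 under array weights and 2 and 2 in a test with unequal spreads. The median change was -1.78 and -1.77 where the median of all probes was 0.02 and 0.11. CDC25B, the phosphatase that activates mitotic kinases, fell by 3.22 from C1 (6.99 ± 0.36, SD, n = 6, to 3.77 ± 1.57, SD, n = 5, adjusted p = 4.15e-05 by limma). CCNF, the F-box cyclin, fell by 3.11 (SE 0.63, adjusted p = 0.000721 by limma), and CDC6, which loads the replicative helicase, fell by 2.85 (SE 0.46, adjusted p = 7.78e-05 by limma). MCM5, a subunit of that helicase, fell by 2.75 (4.69 ± 0.50, SD, at C2, n = 5, adjusted p = 3.11e-08 by limma). Its SD at C2 was near that of the median probe (0.498).

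Array by array, the median over the 22 genes of the C2 level minus the C1 mean was -3.48 for replicate 1, -3.11 for replicate 5 and -1.09 for replicate 2, against -0.06 for replicate 3 and 0.21 for replicate 4. Of the 22 genes, 20 lay below the lowest C1 array in replicate 1, 19 in replicate 5, 18 in replicate 2, 10 in replicate 3 and 9 in replicate 4. Replicates 3 and 4 also had 6 and 9 genes above the highest C1 array, and the other 3 arrays had 0. Replicates 1 and 5 thus lay lowest, replicate 2 next and replicates 3 and 4 highest, as they did for CCND2. CCNB1, the mitotic cyclin, named after its values were seen, was -5.84 and -4.77 from the C1 mean in replicates 1 and 5, -0.52 in replicate 2, and 0.75 and 1.24 in replicates 3 and 4. MCM5, in contrast, lay -3.31 to -2.16 from the C1 mean on every C2 array. It was not alone, since CDC25B, CCNF, CDC6, CDC20, PLK1, MCM4 and MCM2 also lay below every C1 array on each C2 array. CDC25B was -5.03 and -4.67 from the C1 mean in replicates 1 and 5, and -1.99 and -1.55 in replicates 3 and 4. The summed leukocyte markers were 55.4 and 68.8 in replicates 1 and 5, 17.1 in replicate 2, and 32.0 and 39.2 in replicates 3 and 4, and those of granulosa and cumulus were 1613, 1445, 3208, 5417 and 5835 in the same order. The granulosa markers HSD17B1, FSHR, AMH and FST lay below every C1 and NC1 array on each C2 array, also in replicates 3 and 4. The other granulosa markers tested, INHA, INHBA and GJA1, overlapped with both stages. Their changes from C1 were -0.29, -1.49 and -0.56 and did not pass (adjusted p = 0.449, 0.0378 and 0.260 by limma). The part of the leukocyte or granulosa markers in the spread of the cell-cycle genes was not tested.

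**Figure D3:**
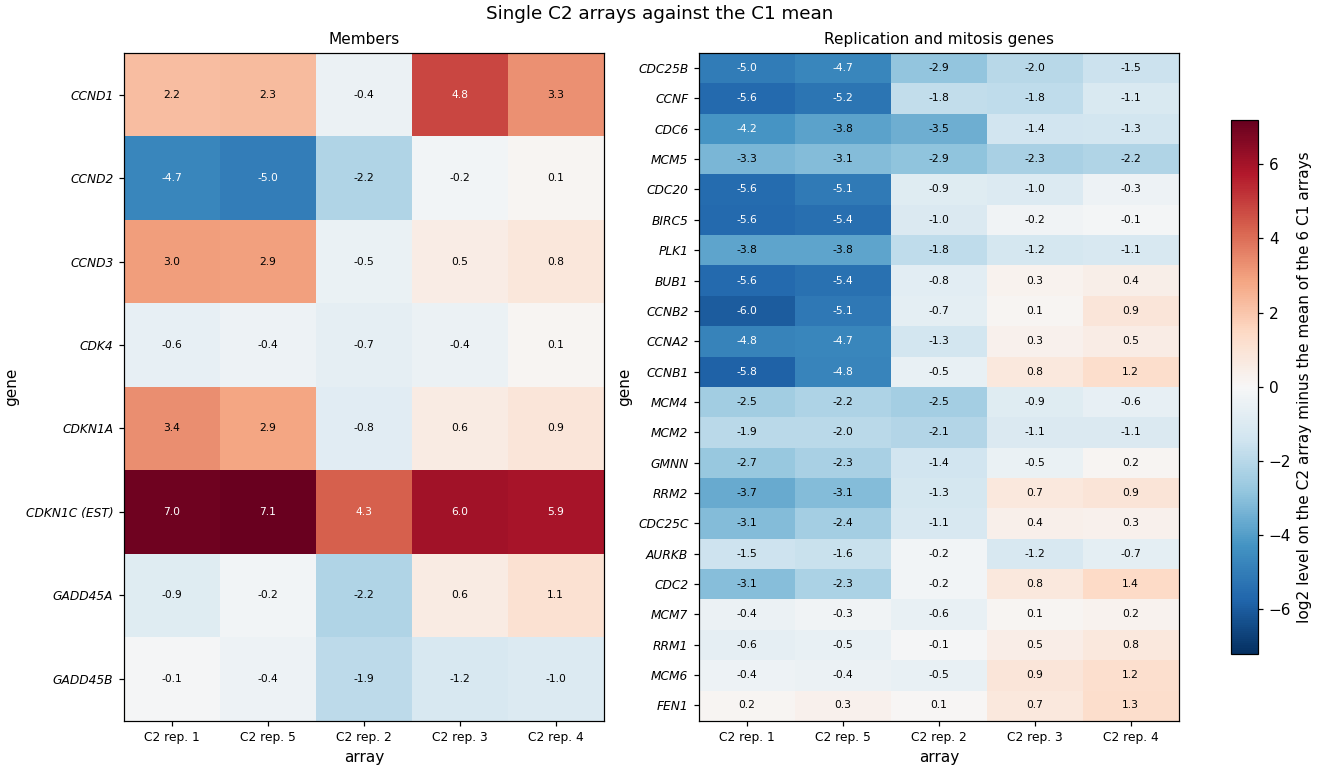
Log2 level of each gene on each C2 array minus the mean of the 6 C1 arrays (colour and printed value), for the members tested with CDKN1C (left) and the 22 division genes tested (right). Columns are the 5 C2 arrays, ordered by hand so that arrays close to each other are neighbours. CCND2 and most division genes are lowest in replicates 1 and 5. In replicates 3 and 4 CCND2 is near the C1 mean, but the division genes lie on both sides of it (10 and 9 of 22 below the lowest C1 array, 6 and 9 above the highest), while CDKN1C is 4.30 to 7.09 above it in all 5.

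Over all 13865 probes the C2 arrays differed from each other in the same manner. The distance between 2 arrays, taken over the probes tested as the SD of the difference in log2 level, was 0.444 between C2 replicates 1 and 5 and 0.512 between replicates 3 and 4, and 1.05 to 1.27 for the other 8 pairs. NC1 arrays lay 0.431 to 0.694 from each other and C1 arrays 0.453 to 0.756. At C2, 1.17% of probes had a larger SD than CCND2, 2.63% than CCND1, 3.74% than CDKN1A and 5.23% than CCND3. At C1 these shares were 69.1%, 25.6%, 11.7% and 55.5%.

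The named probes whose profile over the 17 arrays was most like that of CCND2, by the root mean square difference of mean-centred levels, were those of TNNI3 (0.302), CDCA5 (0.333) and NUSAP1 (0.359). TNNI3 encodes a troponin subunit, CDCA5 the cohesion factor sororin, and NUSAP1 a spindle protein. For CDKN1A they were FSTL3 (0.462), an activin-binding protein, LAT2 (0.490), an adaptor of immune cells, and KRT18 (0.505), a keratin. The changes from C1 to C2 were -2.68, -2.59 and -2.35 for the first 3 and 1.61, 1.28 and 1.25 for the last 3.

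The genes around the members, 43 in 4 lists, were on the array for 38 and tested for 31. Against C1, 4 of the 31 rose and 4 fell, and against NC1 1 rose and 5 fell, with a median change of -0.17 and -0.10. As shares these are 12.9% and 12.9% against C1, beside 15.3% and 12.8% of all probes. The counts against NC1 stand beside 15.5% of all probes that rose and 12.6% that fell. Of the 15 partners of the G1 to S transition, 4 rose and 2 fell against C1. MYC, the transcription factor that induces D cyclins and growth genes, fell by 4.78 from C1 (6.92 ± 0.38, SD, n = 6, to 2.14 ± 2.07, SD, n = 5, adjusted p = 7.89e-06 by limma) and fell by 4.64 from NC1. It was lowest in C2 replicate 2 at -1.26 and lay between 2.02 and 3.82 in the others, all below every C1 array. E2F1, the activator of S-phase genes, fell by 2.08 (SE 0.47, adjusted p = 0.00155 by limma). It lay at -2.18 and -1.74 in replicates 1 and 5, at -0.83 in replicate 2 and at 1.01 and 1.03 in replicates 3 and 4.

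RBL2 (p130), the retinoblastoma-family protein of resting cells, rose by 1.09 from C1 (0.69 ± 0.08, SD, n = 6, to 1.79 ± 0.29, SD, n = 5, adjusted p = 6.76e-05 by limma) and by 1.35 from NC1, and it was the 1 gene of these lists that rose against both. CDK7, a subunit of the CDK-activating kinase, rose by 0.85 from C1 (SE 0.23, adjusted p = 0.00760 by limma). The other 2 that rose from C1, CCNE2 (0.82) and E2F5 (0.72), were named after their values were seen. CCNE2 is a cyclin that partners CDK2, and E2F5 is a repressor E2F that works with RBL2.

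The other lists held few calls. Of the INK4 inhibitors of CDK4 and CDK6, CDKN2C (change from C1 -0.19) and CDKN2D (0.51) were tested and 0 passed in limma, with adjusted p of 0.642 and 0.122. Among 4 BTG and TOB antiproliferative genes, BTG2 fell by 1.64 from C1 (SE 0.32, adjusted p = 0.000427 by limma) and fell by 2.37 from NC1. In this list 0 passed as higher, so that the gene that passed fell although its list is named for restraint of proliferation. The others, named after their values were seen, did not pass against C1. BTG3 changed by 1.31 (adjusted p = 0.0189 by limma), TOB2 by -0.80 and BTG1 by -0.49. Among 10 stress-response and GADD45 genes 1 fell and 0 rose against C1. GADD45G, the third GADD45 gene, fell by 1.11 (SE 0.31, adjusted p = 0.00786 by limma). Against NC1 SESN2, a stress-induced regulator of growth signalling, fell by 1.73 and MDM4, a relative of MDM2, fell by 0.70 (adjusted p = 0.000182 and 0.00869 by limma).

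**Figure D4:**
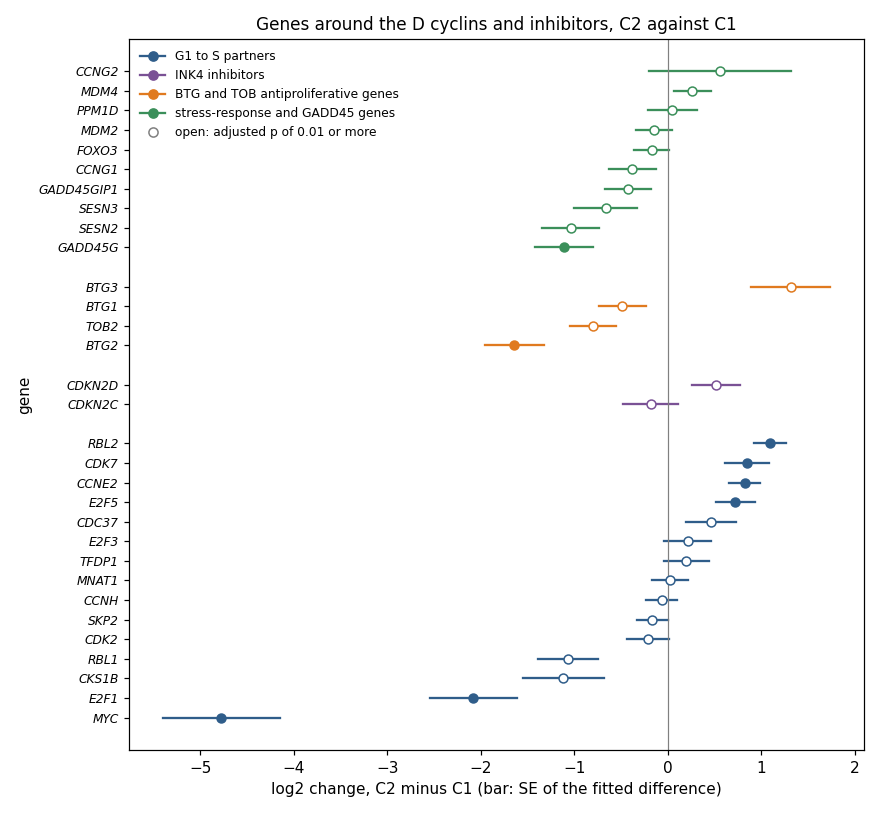
Fitted log2 change from C1 to C2 (horizontal axis, bars are the SE) for the 31 genes tested in 4 lists around the members, coloured by list. Filled points have an adjusted p under 0.01. MYC (-4.78) and E2F1 (-2.08) lie furthest to the left, and RBL2 (1.09) is the highest of the filled points on the right.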

How the data were processed

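Cumulus cell RNA of 17 cows and calves was hybridised to Agilent bovine 1-colour arrays of 42990 spots. Groups are the stages of the sample labels, and the replicates are single animals according to the study's methods. The members and gene lists were chosen with earlier results of these data known. The authors deposited linear intensity values per spot, background-subtracted by Agilent Feature Extraction 10.5.1.1 per the submitters' processing notes and not scaled between arrays. They also deposited log2 values scaled by array medians, used as an alternative, for the 15256 probes present in 80% of arrays in any 2 of 3 stages.

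From the spots, log2 signals were averaged per probe without non-uniform or outlying spots. Each array was then centred on the median of its non-control probes. A probe was tested if at least 50% of its spots were present (above background, uniform, not saturated) in each stage on 80% or more of the arrays, as the study's methods ask. The 3 stages were fitted together in limma 3.58.1 (lmFit, eBayes, R 4.3.3), with Benjamini-Hochberg adjustment over the 13865 probes and a threshold of 0.01, tested on simulated data. The precision is set by the number of arrays. Exact permutation tests were 2-sided. Named genes are the members, the 4 with the largest change past the threshold of each list, and the 3 named probes with profiles most like CCND2 and CDKN1A. A gene of the lists is not reported here. Locus numbers were named through the RefSeq gene table of ARS-UCD2.0. No coordinates are printed, since no build is named in the files. A probe was called well above background where at least 50% of the spots used were. Alternatives were other scalings, background corrections, filters, blocks, array weights, the authors' table and leaving out each array.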

Additional observations from a re-analysis of the deposited data

Results flagged for a closer look

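Of 30 gap tests (10 genes in 3 stages), 1 found a sample far from the others, where chance marks about 1 in 20. CCND3 was 4.90 on C1 replicate 6, the highest of its stage, with the nearest C1 array at 4.33, a gap of 0.652 of the stage's range. Without that array the CCND3 change between C1 and NC1 was -0.05, against 0.07 with it, and neither passed the threshold.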

How the results depend on the processing

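The rise of CDKN1C at C2 kept its direction and passed in every alternative that was run, with a change from C1 of 5.59 to 6.16, and 5.71 to 6.51 when each array was left out in turn. The calls of CCND1 and CCND2 did not. Of the members, at C2 against C1 the number that passed was 1 as reported, 4 with scaling by the 75th percentile and 4 with quantile normalization (CCND1, CCND2, CDK4 and GADD45B in both), 2 with normexp background correction, 2 without a filter (CCND1, and CDKN1B on readings at background), 4 with array weights, and 0 with the slide as a block, with the replicate block, or in a test with unequal spreads (chosen after the data were seen). At C2 against NC1 it was 1 as reported, 2 with array weights, and 0 without a filter, with the slide as a block, with the replicate block or with unequal spreads. Over the 3 stages it was 0 as reported, 3 with the 75th percentile, 3 with quantile normalization, 1 with normexp and 4 with array weights. Leaving out each array gave 0 to 3 members against C1, 0 to 2 against NC1, 0 to 0 at C1 against NC1 and 0 to 2 over the stages. Pathway genes passing against NC1 were 11 with quantile normalization and 2 with unequal spreads, against 6 reported, and against C1 2 with unequal spreads, against 8. Division genes were 17 against C1 and 16 against NC1 with array weights, and 2 and 2 with unequal spreads, against 9 and 8. Left-out arrays gave 5 to 9 and 5 to 7 pathway genes and 8 to 12 and 7 to 10 division genes, against C1 and NC1. The causes were not tested.

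The 75th percentile moved the median change of all probes by -0.13 (C2 against C1) and -0.15 (C2 against NC1), quantile normalization by -0.11 at C2 against NC1, and normexp by 0.14 at C1 against NC1. Directions turned only for changes that had not passed. CCND2 at C1 against NC1 became 0.20 with normexp. CDK4 at C2 against NC1 became 0.16 with normexp and 0.013 with array weights, and GADD45B in the same comparison 0.051 with array weights. With left-out arrays the ranges that cross 0 were -0.19 to 0.0072 for CCND2, -0.049 to 0.14 for CCND3 and -0.14 to 0.48 for CDKN1C at C1 against NC1, -0.18 to 0.027 for CDK4 and -0.032 to 1.02 for CDKN1A at C2 against NC1, and -0.67 to 0.15 for GADD45A at C2 against C1. The authors' table, averaging all spots, the looser filter, the scan day as a block, the close C2 arrays averaged and the methods' one-factor test left the number of members that passed as reported. With the close C2 arrays averaged the member that passed against C1 was CCND2 (-2.35, adjusted p = 0.00858 by limma) in place of CCND1 (1.96, adjusted p = 0.0368), and with normexp the one that passed against NC1 was CCND3 (1.64, adjusted p = 0.00947) in place of CCND2 (-2.18, adjusted p = 0.0148).

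Replicate numbers do not pair the animals of different stages. The correlation of deviations of same-numbered arrays lay between -0.32 and 0.25, and 4 of 16 were over 0.1. With the replicate block, 0 members passed at C2 against C1 and 0 against NC1, with CCND1 at 2.40 (adjusted p = 0.0197 by limma) and CCND2 at -2.50 (adjusted p = 0.0148 by limma). The number of arrays limits the precision, and at C2 the probe of CDKN1B could be told from background on 0 of 5 arrays and that of CDK6 on 1, so that nearly all their readings there are bounds.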
